A study of Mus musculus with 8 samples.

Results

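D2A1-m2 is a metastatic subline of D2A1, a mouse mammary carcinoma line of BALB/c origin, and its gene expression in culture is set here against that of the parental line. The 6 arrays labelled D2A1-m2 (replicates 1 to 3) and D2A1 (replicates 1 to 3) were taken from the 8 arrays of the study. The other 2 arrays hold D2A1-m1, a sister subline, which entered the same model and is given where the sublines differed. The sublines were derived separately: D2A1 cells were put into the mammary fat pad of a BALB/c mouse, the cells growing out of its lungs were recovered, and these were passed again through the tail vein and the lungs. The labels call each subline a subclone, while the methods describe outgrowths from lung with no cloning step, so each subline stands for a single selected population and not for metastatic cells in general. All 3 lines were untreated when total RNA was taken from the cultures. The methods call the cultures independent biological replicates, and each array was hybridised with RNA of 1 culture.

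Tumour cells that colonise the lung leave the primary site, cross vessel walls and resume growth in a tissue with other matrix, growth factors and immune cells. Genes studied in that setting include secreted growth factors and their receptors, the actin and adhesion machinery that moves a cell, the matrix proteins a cell lays down, and the inflammatory and interferon programmes through which it is seen by the host. Cells recovered from the lungs of an animal were able to reach them and grow out, and may carry other differences too. Passages through the tail vein do not require the cells to leave a primary site.

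RNA was measured on 1-colour Illumina MouseWG-6 v2.0 bead arrays with 45281 probes. At a detection p of at most 0.01 against the negative control beads, detection reached 13768 to 14942 probes in D2A1-m2, 13618 to 14625 in D2A1-m1 and 13419 to 14387 in D2A1. After the batch had been removed, pairs of D2A1-m2 arrays correlated at 0.9935 to 0.9947 across genes, D2A1 pairs at 0.9837 to 0.9943, and D2A1-m2 with D2A1 at 0.9598 to 0.9664. Genes are not independent replicates, so these correlations only describe the arrays. Each of the 2 hybridisation batches contained every line. Batch 1 held D2A1-m2 replicate 1 and D2A1 replicates 1 and 2, and batch 2 held D2A1-m2 replicates 2 and 3 and D2A1 replicate 3. Detection followed the batch, at 13419 to 13768 probes in batch 1 and 14387 to 14942 in batch 2.

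The labelled cell type was checked against its markers. The lines kept little of a mammary epithelial profile: of 13 luminal markers on the array 6 were detected on any array, among them Krt8 and Krt18, and Epcam, Cdh1 and Krt19 were not. The basal keratins Krt5 and Krt14 were also undetected. Of 13 basal and myoepithelial markers on the array 4 were tested, and Lgals7, Acta2 and Mylk were higher in D2A1-m2. Trp63 of the same list was not called. Their list summed to 3550 to 3900 in D2A1-m2, nearly all of it from Lgals7 and Acta2, and to 366 to 915 in D2A1. The luminal list summed to 1030 to 1330 in D2A1-m2, most of it from Krt8, and to 564 to 666 in D2A1, where Krt8 was a small part. The difference in this sum thus reflects Krt8 and not the list as a whole. In it Krt8, Muc1 and Cd24a were higher and Krt18 was lower, but Muc1 and Cd24a lost the call without D2A1-m2 replicate 1. Muc1 changed by 0.72 on the probe used and by 0.18, 0.39 and 0.34 on its other kept probes, which were detected on at most 2 D2A1-m2 arrays. Among markers of cells that a lung outgrowth could carry, Col1a2, Col3a1, Dcn and Lum of fibroblasts, Sftpc and Scgb1a1 of lung epithelium, and Pecam1 and Cdh5 of endothelium were not detected on any array. Of these lists 3 of 14 fibroblast markers on the array were detected and tested (Col1a1 0.61 ± 0.16, detected on 1 D2A1-m2 array, Inmt −1.14 ± 0.19, and Pdgfra −0.11 ± 0.15), 2 of 11 of lung epithelium (Hopx 0.7 ± 0.15, detected on 1 D2A1-m2 array, and Ager −0.24 ± 0.2) and 2 of 12 of endothelium (Egfl7 −1.59 ± 0.12 and Eng −0.32 ± 0.16). Of 10 pericyte markers Pdgfrb (0.95 ± 0.22) and Cspg4 (−0.24 ± 0.16) were detected. Summed intensities were 109 to 121 in D2A1-m2 and 125 to 138 in D2A1 for fibroblasts, 52.9 to 75.9 in D2A1-m2 and 47.6 to 63.9 in D2A1 for lung epithelium, 162 to 168 in D2A1-m2 and 383 to 503 in D2A1 for endothelium, and 85.7 to 120 in D2A1-m2 and 64.9 to 77.9 in D2A1 for pericytes. Among these, Col1a1, Pdgfrb and Hopx passed the test as higher and Inmt and Egfl7 as lower, but the call was lost for Col1a1 without D2A1-m2 replicate 1 or 3 or D2A1 replicate 3, for Pdgfrb without D2A1 replicate 3 and for Hopx without D2A1-m2 replicate 1. The part of these cell types in the results was not tested. Of 18 leukocyte markers on the array 5 were detected, and 4 of these were higher in D2A1-m2 (Arhgdib, Laptm5, Coro1a and Lyz1). A second Coro1a probe, undetected in D2A1-m2 and D2A1, changed by 0.29, against 0.99 on the probe used. The summed intensity of the 5 detected markers, most of it from Arhgdib in D2A1-m2, was 4040 to 4200 on the D2A1-m2 arrays and 347 to 453 on the D2A1 arrays. The defining leukocyte genes Ptprc, Itgam, Csf1r and Adgre1 were undetected on all 8 arrays. In RNA of a whole culture, fewer cells of a type and less RNA per cell cannot be told apart.

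Of 9017 genes tested, 1462 (16.2%) differed between D2A1-m2 and D2A1 at an adjusted p under 0.05 and at least 1.5-fold, 800 (8.87%) higher and 662 (7.34%) lower in D2A1-m2. The test was limma's, fitted on line and batch with Benjamini-Hochberg adjustment over all 9017 genes, and levels below are normalized log2 intensities. Most of the differences were moderate, with a median of 0.83 log2 units among the genes that were higher and −0.78 among those that were lower. At least 4-fold differences were more frequent upward, with 50 genes higher and 20 lower, and 12 genes were at least 8-fold higher against 3 that were at least 8-fold lower. Once the batch term had been taken out, the 3 D2A1-m2 arrays did not overlap the 3 D2A1 arrays for 1452 of the called genes, and for 48.9% of all genes tested. The change had the same sign in both batches for all 1462 called genes, and it reached 1.5-fold within each batch for 996 of them.

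**Figure D1:**
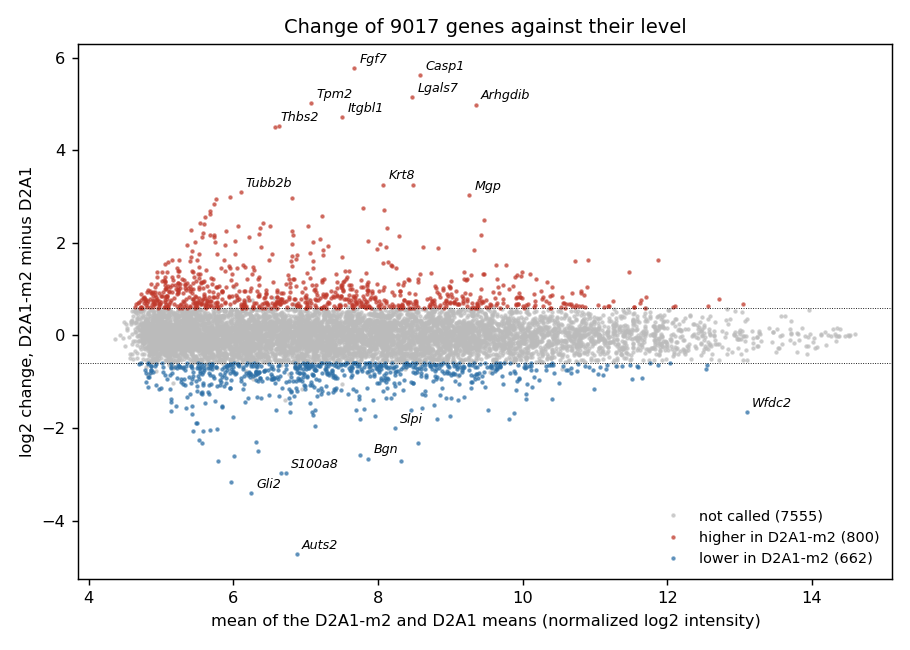
Each point is 1 of the 9017 genes, with the mean of its D2A1-m2 and D2A1 log2 intensities on the x axis and its log2 change (D2A1-m2 minus D2A1) on the y axis. Genes called higher (800) and lower (662) in D2A1-m2 are coloured, and the points of largest change lie above 0, up to 5.77 for Fgf7.

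A further description is which genes were detected at all. Of the 9017 genes tested, 134 that were higher in D2A1-m2 had a probe detected on all 3 D2A1-m2 arrays and on no D2A1 array. The reverse pattern held for 37 genes that were lower in D2A1-m2. Fewer probes were detected in batch 1 than in batch 2. D2A1-m2 has 2 of its 3 arrays in batch 2 and D2A1 has 1, so the 134 and the 37 were not counted on equal terms. On the D2A1-m1 arrays 86 of the 134 genes were detected on both, 21 on 1 and 27 on neither. Of the 37 genes undetected in D2A1-m2, 33 were undetected on both D2A1-m1 arrays too. Detection in D2A1-m1 was not part of that selection. The D2A1-m1 values did enter the model and the choice of probe, so these counts are not independent of it. For such genes only a lower limit of the fold can be given, written below as "at least". It sets the brighter line's mean against the dimmest level that still counts as detected. Unlike the changes with an SE, this limit is not adjusted for the batch and carries no error.

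The largest increases in D2A1-m2 were in genes of different functions. Fgf7, the growth factor also called keratinocyte growth factor, which acts on epithelial cells, stood at 10.25, 10.77 and 10.77 in D2A1-m2, against 4.91, 4.75 and 4.57 in D2A1, where it was not detected. It was at least 39.1-fold higher in D2A1-m2 (adjusted p = 1.87e-07). Casp1, the protease that matures interleukin-1β in inflammasomes, stood at 11.32, 11.39 and 11.42 in D2A1-m2, against 5.78, 6.17 and 5.36 in D2A1, a log2 change of 5.62 ± 0.21 (SE here and below, adjusted p = 5.51e-07). For both genes the lowest D2A1-m2 array lay over 5 log2 units above the highest D2A1 array. Lgals7, a galectin of stratified epithelia, was close to identical on the D2A1-m2 arrays at 11.12, 11.13 and 11.12, against 5.41, 5.35 and 6.68 in D2A1 (change 5.14 ± 0.25, adjusted p = 3.16e-06). Arhgdib, a gene best known from blood cells, had the same evenness in D2A1-m2 at 11.83, 11.82 and 11.84, against 6.24, 7.72 and 6.66 in D2A1 (change 4.98 ± 0.32, adjusted p = 1.42e-05). D2A1 was the more variable line for both.

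Tpm2, a tropomyosin that coats actin filaments, was at least 19.2-fold higher in D2A1-m2 (9.79, 9.58 and 9.35, against 4.47, 4.63 and 4.64 in D2A1, adjusted p = 7.94e-08). Itgbl1, a secreted protein with integrin-like repeats, stood at 9.76, 9.95 and 9.82 in D2A1-m2, against 4.84, 5.8 and 4.85 in D2A1, a change of 4.71 ± 0.24 (adjusted p = 4.12e-06). Id4, an inhibitor of basic helix-loop-helix transcription factors, and Thbs2, an anti-angiogenic matrix glycoprotein, were each at least 11.4-fold higher and undetected in D2A1. Id4 stood at 9.09, 8.75 and 8.64 in D2A1-m2, against 4.41, 4.53 and 4.31 in D2A1. The remaining genes at the top of the list were Krt8 (3.26 ± 0.22), Tnfrsf11b (3.25 ± 0.17), Tubb2b (at least 4.98-fold on the probe used) and Mgp (3.03 ± 0.18), all with adjusted p values of 1.64e-05 or less. For Tpm2 and Arhgdib a second probe of the gene, detected on at most 1 D2A1-m2 array and on no D2A1 array, changed by 0.53 and 0.48 only, so these values belong to the brighter probe.

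**Figure D2:**
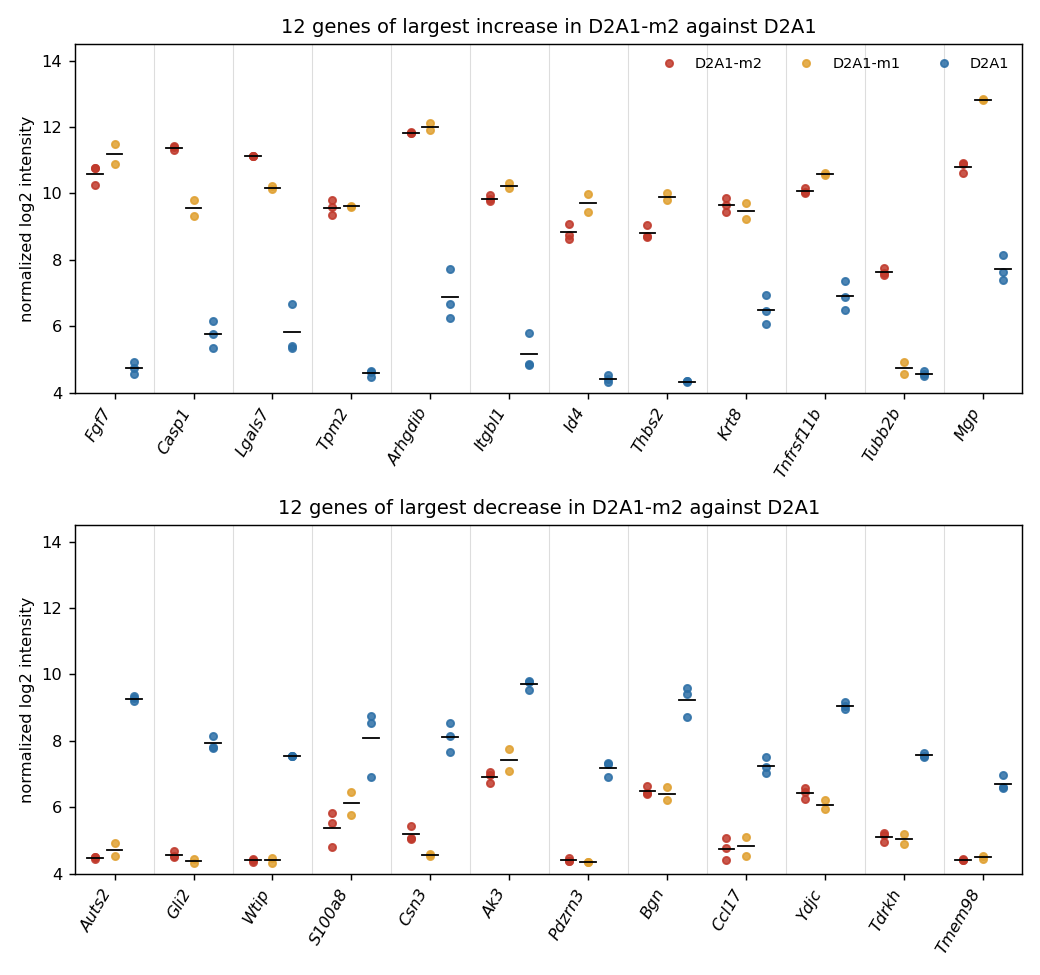
Normalized log2 intensity of the 12 genes of largest increase and the 12 of largest decrease in D2A1-m2, 1 point for each array and a bar at the mean of each line, with D2A1-m2 left, D2A1-m1 in the middle and D2A1 right for each gene. In every gene shown the 3 D2A1-m2 points lie apart from the 3 D2A1 points, and the D2A1-m1 points lie at the D2A1-m2 side for all but Tubb2b.

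Among the decreases, Auts2, a nuclear and cytoskeletal regulator known from brain development, was the largest. It stood at 4.51, 4.45 and 4.49 in D2A1-m2, where it was not detected, against 9.28, 9.34 and 9.2 in D2A1, and was lower by at least 17-fold (adjusted p = 7.94e-08). Also undetected was Gli2, which carries Hedgehog signals to DNA, at 4.53, 4.68 and 4.5 in D2A1-m2, against 7.8, 7.83 and 8.15 in D2A1, at least 6.7-fold lower (adjusted p = 3.07e-07). The LIM domain protein Wtip was lower by at least 5.16-fold, the ubiquitin ligase Pdzrn3 by at least 4-fold and the membrane protein Tmem98 by at least 2.89-fold, all undetected in D2A1-m2. These genes were thus at the detection limit in D2A1-m2 and well measured in the parental line.

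Other strong decreases, apart from Ccl17, left some signal in D2A1-m2. S100a8, a subunit of calprotectin, stood at 4.81, 5.82 and 5.52 in D2A1-m2, against 8.55, 6.91 and 8.76 in D2A1 (change −2.98 ± 0.35, adjusted p = 0.000453). Csn3, the κ-casein of milk, stood at 5.45, 5.06 and 5.07 in D2A1-m2, against 8.16, 7.66 and 8.54 in D2A1 (change −2.96 ± 0.22, adjusted p = 3.25e-05). Bgn, the small leucine-rich proteoglycan biglycan, changed by −2.66 ± 0.21. Ccl17, a chemokine for T cells, was undetected in D2A1-m2 and at least 4.19-fold lower. Ak3, a mitochondrial adenylate kinase (−2.72 ± 0.18), Ydjc (−2.59 ± 0.14) and Tdrkh, a protein of the piRNA pathway in germ cells (−2.49 ± 0.12), completed the 12 largest decreases.

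Gene groups were then described through lists of pathways, each by how many tested members were higher or lower in D2A1-m2, beside the 16.2% of all genes that changed. Among the lists with at least 10 tested genes, the share of members that changed ran between 2% for cytosolic ribosomal proteins and 72.2% for matricellular proteins and proteoglycans.

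**Figure D3:**
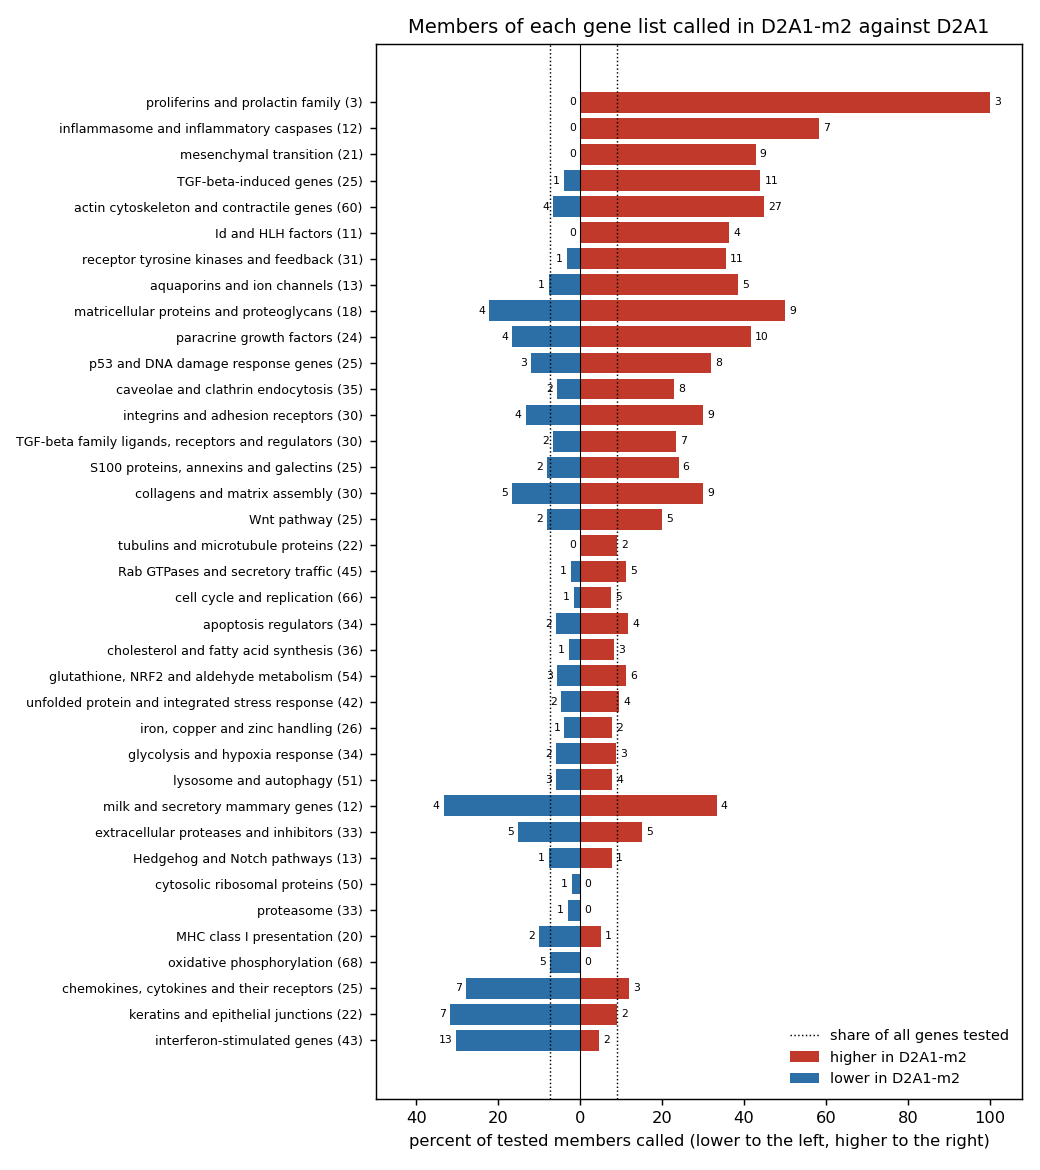
Bars give, for each gene list with its number of tested members in parentheses, the percent of members called higher (to the right) and lower (to the left) in D2A1-m2 against D2A1, with the numbers of genes at their ends and dotted lines at the shares of all genes (8.87% and 7.34%). Lists from the inflammasome (7 of 12) to the actin cytoskeleton (27 of 60) extend to the right, and interferon-stimulated genes (13 of 43) to the left.

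The inflammasome list was higher on balance. Of its 12 tested members 7 were higher and none was lower, with a median change of 0.85. Of 25 members on the array, 13 were detected on no array and were not tested. Among the 12, 5 were detected in D2A1-m2 and not in D2A1, and 1 in D2A1 and not in D2A1-m2. The 5 entered the test only through the sublines, so the share and the median depend in part on the detection filter. Besides Casp1, Aim2, a sensor of cytosolic DNA, stood at 7.37, 7.23 and 7.21 in D2A1-m2, against 5.02, 5.31 and 5.17 in D2A1, where it was undetected (at least 3.88-fold, adjusted p = 6.62e-06). Casp4, the caspase that senses bacterial lipopolysaccharide inside cells, was at least 2.77-fold higher. Gsdmd, the pore-forming substrate of both caspases, stood at 7.11, 6.45 and 6.21 in D2A1-m2, against 5.2, 5.71 and 4.94 in D2A1 (change 1.5 ± 0.16, adjusted p = 0.000307). Between the sublines the genes differed in opposite ways, Gsdmd by −1.58 (D2A1-m2 minus D2A1-m1, adjusted p = 0.00253, lost without D2A1-m1 replicate 2) and Casp1 by 1.82 (adjusted p = 0.00421, lost without D2A1-m1 replicate 1). A second probe of Casp4 and of Gsdmd, detected on 1 D2A1-m2 array, changed by 0.38 for each gene, and another one, detected on all 3, by 1.72 for Casp4 and 0.84 for Gsdmd. Gsdme, the gasdermin cut by executioner caspases, had a change of 0.11 ± 0.14 (adjusted p = 0.577).

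Paracrine growth factors changed in both directions, with 10 of 24 tested members higher and 4 lower. Angpt1, the ligand of the endothelial receptor Tie2, stood at 6.63, 7 and 6.79 in D2A1-m2 and was undetected at 4.58, 4.63 and 4.84 in D2A1, at least 2.82-fold higher in D2A1-m2 (adjusted p = 8.45e-06). Pdgfc, a ligand of the PDGF receptor α, had the opposite pattern: it was undetected at 4.55, 4.6 and 4.39 in D2A1-m2, against 6.55, 6.87 and 5.65 in D2A1, at least 2.26-fold lower (adjusted p = 0.00088). The angiogenic factor Vegfa (0.61 ± 0.25, adjusted p = 0.102) and its relative Vegfb (−0.23 ± 0.15, adjusted p = 0.297) did not pass the test. Angptl4, a secreted inhibitor of lipoprotein lipase, changed by 1.63 ± 0.18 on the probe used and by −0.14 on a second, barely detected probe.

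The TGF-β family holds secreted ligands, the latent binding proteins that store them, receptors and SMAD transducers. Of 30 tested members 7 were higher and 2 lower. Ltbp1, which tethers latent TGF-β to the matrix, changed by 1.46 ± 0.2 (6.91, 6.66 and 6.4 in D2A1-m2, against 4.87, 5.66 and 5.24 in D2A1, adjusted p = 0.00111), and Inhba, the subunit of activin A, by 1.32 ± 0.18 (adjusted p = 0.0011). Bmp1, the protease that trims procollagens and releases some ligands, was lower (−1.14 ± 0.13, adjusted p = 0.000375), and Smad1 and Bmpr2 of the BMP branch had changes of −0.04 ± 0.14 and 0.11 ± 0.13. Of 25 genes known to be induced by TGF-β, 11 were higher and 1, Bgn, was lower. Among the 11, Sparc, a collagen-binding protein, stood at 11.21, 11.68 and 11.9 in D2A1-m2, against 9.6, 10.1 and 9.88 in D2A1 (change 1.61 ± 0.18, adjusted p = 0.000333).

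Id proteins bind basic helix-loop-helix factors and keep them off DNA, and they are known targets of BMP signalling. Id4 was joined by Id2 (at least 1.86-fold higher on the probe used) and Id3, and with Tcf4, a partner that Id proteins bind, 4 of 11 tested members of the group were higher and none was lower. The probe used for Id2 was undetected in D2A1, while its other 2 kept probes, detected on 3 and on 1 of the D2A1 arrays, changed by 2.28 and 1.95. Id3 stood at 7.95, 8.39 and 8.1 in D2A1-m2, against 7.07, 6.4 and 7.21 in D2A1 (change 1.16 ± 0.19, adjusted p = 0.00275). Twist1, a helix-loop-helix factor of mesenchymal cells, had a change of 0.31 ± 0.13 (adjusted p = 0.101).

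The actin cytoskeleton list held the largest number of changed members, 27 of 60 higher and 4 lower, with a median change of 0.49. After Tpm2 and Arhgdib, the largest increases were in both smooth muscle actins. Actg2 stood at 8.05, 7.03 and 6.91 in D2A1-m2, against 5.38, 6.27 and 4.55 in D2A1 (change 2.32 ± 0.21, adjusted p = 0.000107). Acta2 stood at 10.58, 10.3 and 10.2 in D2A1-m2, against 8.53, 9.6 and 7.34 in D2A1 (change 2.18 ± 0.33, adjusted p = 0.00178), and was at 8.6 and 7.88 in D2A1-m1. The 2 members of highest level that were not called, Tpm4 (0.53 ± 0.12, adjusted p = 0.0108) and Pfn1 (0.41 ± 0.15, adjusted p = 0.0774), fell short of 1.5-fold.

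Microtubule genes gave another picture: 2 of 22 tested members were higher and none was lower (9.09%, below the 16.2% of all genes). The 2 were Tubb2b, a β-tubulin of neurons, and Map1b, a microtubule-associated protein of growing axons. The probe used for Tubb2b stood at 7.76, 7.59 and 7.53 in D2A1-m2 and was undetected at 4.91 and 4.56 in D2A1-m1 and at 4.55, 4.51 and 4.66 in D2A1. Another probe of Tubb2b was detected on all arrays of both D2A1-m2 and D2A1 and changed by 0.86, and 2 more, detected on 1 D2A1-m2 array, by 0.46 and 0.26. Map1b was detected in D2A1-m2 alone (6.15, 5.68 and 5.73, at least 1.46-fold higher than in D2A1, adjusted p = 0.00336). The tubulins of general use were even across the lines, with changes of −0.01 ± 0.11 for both Tuba1b and Tubb5.

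Caveolae are small pits of the plasma membrane built by caveolins and cavins. Of 35 tested genes of caveolae and clathrin endocytosis 8 were higher and 2 lower. Cavin1, the coat protein that shapes the pit, stood at 9.2, 9.17 and 9.1 in D2A1-m2, against 6.21, 6.6 and 6.46 in D2A1 (change 2.75 ± 0.14, adjusted p = 3.16e-06), and Cavin4, its muscle relative, was at least 1.73-fold higher. Cav1, the main caveolin, was already high in D2A1 and differed by 0.5 ± 0.12, under 1.5-fold (adjusted p = 0.0149).

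Epithelial genes were lower more often than higher, with 7 of 22 tested keratins and junction genes lower and 2 higher. Cldn1, a claudin of tight junctions, was undetected at 4.81, 4.67 and 4.58 in D2A1-m2, against 5.95, 5.86 and 6.25 in D2A1 (at least 1.79-fold lower, adjusted p = 0.000512). Shroom2, which ties junctions to actin, stood at 6.08, 6.49 and 6.17 in D2A1-m2, against 7.83, 8.08 and 7.9 in D2A1 (change −1.71 ± 0.14, adjusted p = 7.29e-05). Krt8 went against the group: it stood at 9.87, 9.45 and 9.65 in D2A1-m2, against 6.06, 6.95 and 6.45 in D2A1, while its filament partner Krt18 was 2.01-fold lower in D2A1-m2 (−1 ± 0.18, adjusted p = 0.00376). Genes of mesenchymal transition were higher in 9 of 21 cases and lower in none. Axl, a receptor tyrosine kinase linked to invasion, changed by 1.38 ± 0.12 (adjusted p = 6.75e-05) on the probe used and by 0.41 on a dim second probe. Vim, the intermediate filament protein that defines the mesenchymal state, did not pass the test (−0.17 ± 0.12, adjusted p = 0.315).

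Adhesion receptors were mixed, with 9 of 30 tested members higher and 4 lower. Vcam1, a receptor for the integrins of leukocytes, stood at 10.48, 10.73 and 10.94 in D2A1-m2, against 7.98, 8.68 and 7.94 in D2A1 (change 2.49 ± 0.22, adjusted p = 0.000107). Cd44, the hyaluronan receptor, changed by 1.1 ± 0.16 (adjusted p = 0.00149), with all D2A1-m2 arrays above all D2A1 arrays. Sdc3, a heparan sulphate proteoglycan of the cell surface, was lower at 6.23, 6.41 and 6.3 in D2A1-m2, against 8, 8.13 and 7.68 in D2A1 (change −1.6 ± 0.14, adjusted p = 0.000107). Mcam, an adhesion molecule of melanoma and endothelium, was higher by 1.45 ± 0.26 than in D2A1 (adjusted p = 0.0039) and its probe was undetected on both D2A1-m1 arrays. Of the 13 changed members 6 lie off chromosomes 2, 4, 14 and 16, which are described further below.

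Matrix genes changed in both directions. Of 18 tested matricellular proteins and proteoglycans 9 were higher and 4 lower (72.2% called), and of 30 collagens and matrix assembly genes 9 were higher and 5 lower (46.7%). Mgp, which keeps matrix from calcifying, stood at 10.89, 10.63 and 10.91 in D2A1-m2, with 12.8 and 12.84 for D2A1-m1, and at 7.62, 7.38 and 8.14 in D2A1. It thus lay between the other lines, 3.03 ± 0.18 above D2A1 and 2.05 below D2A1-m1 (m2 minus m1 −2.05, adjusted p = 0.00126). Chst1, a sulphotransferase for keratan sulphate chains, had the same order, undetected in D2A1, at 7.2, 7.19 and 6.98 in D2A1-m2, and 1.94 below D2A1-m1 (−1.94, adjusted p = 0.000305). Tnfrsf11b, osteoprotegerin, the decoy receptor that blocks osteoclast formation, stood at 10.15, 10 and 10.03 in D2A1-m2, against 6.89, 7.36 and 6.49 in D2A1. Col18a1, the parent of endostatin, was 2.88-fold higher (1.53 ± 0.2, adjusted p = 0.000937) and Lama5, a laminin chain of basement membranes, 2.44-fold lower (−1.29 ± 0.18, adjusted p = 0.00116). Col5a1, a fibrillar collagen, had a change of 0.09 ± 0.12.

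Extracellular proteases and their inhibitors were called at 5 higher and 5 lower of 33. The inhibitors Slpi and Wfdc2, neighbours in a family of whey acidic proteins, were both lower: Wfdc2 stood at 12.39, 12.27 and 12.1 in D2A1-m2, against 13.99, 13.71 and 14.08 in D2A1 (change −1.66 ± 0.14, adjusted p = 8.46e-05), and Slpi changed by −2 ± 0.27 (adjusted p = 0.00088). Lxn, an inhibitor of carboxypeptidases, was higher at 12.58, 12.77 and 12.85 in D2A1-m2, against 10.86, 10.9 and 11.24 in D2A1 (change 1.63 ± 0.11, adjusted p = 1.64e-05). Adamts4, an aggrecan-cleaving protease, was 2.8-fold higher (adjusted p = 0.000474). Cst3 and Ctsb, an inhibitor and a cathepsin of high level, stayed under 1.5-fold.

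Proliferation genes were near the background or below it. Of 66 tested cell cycle and replication genes 5 were higher and 1 was lower, 9.09% in all, with a median change of 0.03. The 1 gene lower was Myc, the growth-promoting transcription factor, at 7, 6.64 and 6.98 in D2A1-m2, against 7.92, 7.72 and 7.7 in D2A1 (change −0.85 ± 0.13, adjusted p = 0.00185). Ccnd1, cyclin D1, was 2.08-fold higher (8.04, 7.92 and 7.98 in D2A1-m2, against 7.13, 7.18 and 6.72 in D2A1, adjusted p = 0.000368). Mcm5, a subunit of the replicative helicase, and Birc5, survivin, had changes of −0.33 ± 0.14 and 0.36 ± 0.15 and did not pass the test.

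Among 25 genes of the p53 and DNA damage response 8 were higher and 3 lower, a count that ranged between 5 and 10 called genes when 1 array was left out, the lowest without D2A1 replicate 3. Gadd45g, a stress-induced partner of cell cycle kinases, stood at 8.13, 7.57 and 7.74 in D2A1-m2, against 6.22, 5.89 and 5.38 in D2A1 (change 2.17 ± 0.13, adjusted p = 8.66e-06). Mdm2, the ubiquitin ligase that p53 induces, had a change of 0.28 ± 0.12 (adjusted p = 0.12). Of 34 apoptosis regulators 4 were higher and 2 lower (17.6%, near the background). That count lay between 3 and 6 when single arrays were left out, at 3 without D2A1-m2 replicate 3. Among these regulators Dap, a positive mediator of interferon-γ-induced death, was 2.9-fold higher (adjusted p = 0.00022).

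Interferon-stimulated genes are switched on by interferons through STAT and IRF factors that bind response elements in promoters. Of 43 tested members 13 were lower and 2 higher in D2A1-m2, with a median change of −0.52. The size of this group rested on single arrays. Without D2A1 replicate 2 the number of called members was 26, of which 24 were lower, and without D2A1-m2 replicate 1 it was 24, of which 22 were lower. Without D2A1 replicate 3 it was 3, of which 1 was lower. It was 9 without D2A1-m2 replicate 2, without D2A1-m2 replicate 3 and without D2A1 replicate 1, and 12 without either D2A1-m1 array. D2A1 was itself uneven: Rsad2, viperin, an antiviral enzyme, stood at 8.91, 9.26 and 9.34 in D2A1-m2, against 10.92, 9.36 and 11.52 in D2A1 (change −1.68 ± 0.37, adjusted p = 0.00992), and it lost the call without D2A1 replicate 3. D2A1 replicate 2 was the lowest of its line for Rsad2, Cmpk2 and Bst2. Cmpk2, the neighbour and partner enzyme of Rsad2, stood at 8.07, 8.08 and 8.13 in D2A1-m2, against 9.67, 8.65 and 10.08 in D2A1 (change −1.5 ± 0.27, adjusted p = 0.00417), with no overlap. Bst2, tetherin, which holds budding virus at the membrane, stood at 9.67, 10.04 and 9.66 in D2A1-m2, against 11.3, 10.28 and 11.52 in D2A1 (change −1.37 ± 0.26, adjusted p = 0.00472), and also lost the call without D2A1 replicate 3. The group was not lower throughout, as Phf11d was 3.3-fold higher (8.19, 7.23 and 7.55 in D2A1-m2, against 5.85, 5.94 and 6.08 in D2A1, adjusted p = 0.00123) and Ifitm3 had a change of −0.14 ± 0.17.

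**Figure D4:**
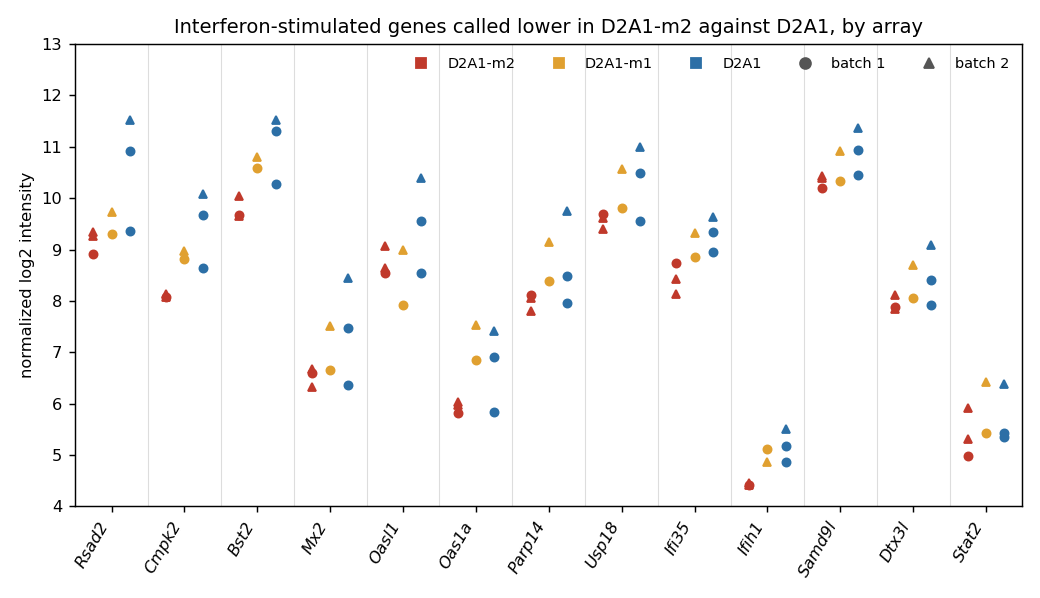
Normalized log2 intensity of the 13 interferon-stimulated genes called lower in D2A1-m2, 1 symbol for each array (circles batch 1, triangles batch 2), with D2A1-m2 left, D2A1-m1 in the middle and D2A1 right for each gene. D2A1 replicate 2 lies nearest to the D2A1-m2 arrays for genes such as Rsad2 (9.36, against 10.92 and 11.52 on the other D2A1 arrays).

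The promoters of the lowered genes Rsad2 and Bst2, from 250 bases before to 50 after the transcription start in RefSeq (GRCm38.p6), show what such a response element looks like in this group. Both are read 5′ to 3′ on the minus strand, at chr12:26456403-26456702 for Rsad2 and chr8:71537423-71537722 for Bst2, and capitals mark matches to the core of the interferon-stimulated response element, 2 copies of GAAA with any 2 bases between them, searched on both strands.
Rsad2: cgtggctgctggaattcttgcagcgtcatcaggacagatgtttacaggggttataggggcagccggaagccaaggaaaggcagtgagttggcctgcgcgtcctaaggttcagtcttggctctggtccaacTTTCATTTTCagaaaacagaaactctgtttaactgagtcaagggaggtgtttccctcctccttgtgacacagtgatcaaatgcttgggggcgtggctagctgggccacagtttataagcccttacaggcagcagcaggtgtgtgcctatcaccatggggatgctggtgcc
Bst2: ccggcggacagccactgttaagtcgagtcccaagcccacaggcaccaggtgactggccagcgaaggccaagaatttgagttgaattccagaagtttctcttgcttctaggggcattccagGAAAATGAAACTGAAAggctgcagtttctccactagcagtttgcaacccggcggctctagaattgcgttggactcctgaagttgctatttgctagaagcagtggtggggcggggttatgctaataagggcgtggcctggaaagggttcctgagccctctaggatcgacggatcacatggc
The Rsad2 match is on the opposite strand, and the Bst2 capitals are a pair of matches that overlap. The motif was present in the same window of 18 of 35 list members with a promoter in the table (51.4%) and of 277 of 7399 tested genes (3.74%). Among list members with a promoter in the table, it was present in 5 of 10 called lower and in 13 of 23 that were not called (56.5%). It was absent from Ifitm1 and Phf11d, which were called higher. The calls of this list rested on single arrays, so these shares only describe the list. A match describes letters in this window and is no measure of binding.

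Chemokines and cytokines were lower more often than higher, with 7 of 25 tested members lower and 3 higher. Cxcl1, a chemokine for neutrophils, stood at 7.83, 7.28 and 7.22 in D2A1-m2, against 8.81, 8.51 and 9.06 in D2A1 (change −1.35 ± 0.21, adjusted p = 0.00199). Ptx3, a soluble pattern recognition protein, was lower than in D2A1 but higher than in D2A1-m1, at 8.11, 7.59 and 7.43 in D2A1-m2, 4.5 and 4.42 (undetected on the probe used) in D2A1-m1, and 9.61, 10.42 and 8.54 in D2A1. The change was −1.56 ± 0.29 against D2A1 (adjusted p = 0.00456) and 3.38 against D2A1-m1 (adjusted p = 0.00106). Of 20 genes of MHC class I presentation 1 was higher and 2 were lower (15%, near the 16.2% of all genes). B2m, the shared light chain, had a change of −0.03 ± 0.15. The MHC count was 7 without D2A1-m2 replicate 1, 6 without D2A1 replicate 2, 1 without D2A1-m2 replicate 2 or 3 and 0 without D2A1 replicate 3.

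Among receptor tyrosine kinases and their regulators 11 of 31 were higher, 1 was lower and 19 were not called. Pdgfrl, a secreted protein related to PDGF receptors, stood at 9.32, 9.46 and 9.64 in D2A1-m2, against 6.34, 6.9 and 6.82 in D2A1 (change 2.71 ± 0.16, adjusted p = 6.73e-06). Igfbp6, which binds insulin-like growth factor 2, was undetected in D2A1 and at least 3.27-fold higher in D2A1-m2 (adjusted p = 4.12e-06). Errfi1, a feedback inhibitor of the EGF receptor, was 2.51-fold higher at 10.26, 10.07 and 9.98 in D2A1-m2, against 8.92, 8.56 and 8.95 in D2A1 (adjusted p = 0.000507). Igfbp4 and Igfbp7, both high in all lines, did not reach 1.5-fold.

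In the Wnt pathway 5 of 25 tested members were higher and 2 lower, and 4 of these 7 lie off chromosomes 2, 4, 14 and 16. Wnt10a, a ligand, stood at 8, 7.64 and 7.37 in D2A1-m2, against 5.27, 5 and 5.75 in D2A1, a change of 2.37 ± 0.25 (adjusted p = 0.00023). Sox9, a transcription factor of progenitor cells, was 2.25-fold higher (adjusted p = 0.00214). Sox12, a related factor, was lower at 8.62, 8.8 and 8.7 in D2A1-m2, against 10.4, 10.39 and 10.21 in D2A1 (change −1.6 ± 0.12, adjusted p = 4.02e-05). The cytoplasmic regulators Axin1 and Gsk3b did not pass the test. Of 13 Hedgehog and Notch genes 1 was higher and 1 lower (15.4%, near the 16.2% of all genes). The 2 genes were both Gli factors, Gli2 lower and Gli3 higher (0.7 ± 0.12, adjusted p = 0.00367), and Gli3 was detected on 2 of the 3 D2A1-m2 arrays and on none of D2A1.

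Among secretory mammary genes 4 of 12 were higher and 4 lower, so the group had no common direction, and 5 of the 8 lie off chromosomes 2, 4, 14 and 16. While Csn3, Slpi and Wfdc2 were lower, Plin2, the coat protein of lipid droplets, was 2.31-fold higher (10.09, 9.69 and 9.63 in D2A1-m2, against 8.72, 8.54 and 8.74 in D2A1, adjusted p = 0.000505). Of the S100, annexin and galectin genes 6 of 25 were higher and 2 lower, among them S100a4, a protein associated with metastasis, which stood at 9.56, 9.77 and 9.63 in D2A1-m2, against 8.83, 8.71 and 8.74 in D2A1 (change 0.91 ± 0.13, adjusted p = 0.00111). The 3 proliferins that were measured, placental hormones of the prolactin family, were all higher, by 0.97 to 1.04. Their sequences are nearly identical, so the probes may not tell the copies apart and the 3 values are not separate observations.

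Water channels were higher: Aqp5, a channel of glands and alveolar cells, changed by 0.88 ± 0.13 (10.66, 11.07 and 11.17 in D2A1-m2, against 9.62, 9.5 and 10.45 in D2A1, adjusted p = 0.00144) and Aqp1 by 1.97 ± 0.19 (adjusted p = 0.000163). Aqp1 differed between batches within each line, at 6.86 in batch 1 and 8.76 and 8.85 in batch 2 for D2A1-m2, and at 4.94 and 4.68 in batch 1 and 6.76 in batch 2 for D2A1. With 3 further members higher and 1 lower, 6 of 13 aquaporins and ion channels changed.

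Energy and biosynthetic genes were close to the background or below it. Of 68 tested genes of oxidative phosphorylation none was higher and 5 were lower, with a median change of −0.11, and 2 of the 5 lie off chromosomes 2, 4, 14 and 16. Chchd10, a small protein of mitochondrial cristae, had the largest change, at 9.71, 8.33 and 8.08 in D2A1-m2, against 10.6, 11.79 and 10.31 in D2A1 (−1.81 ± 0.28, adjusted p = 0.00199). In glycolysis 3 of 34 were higher and 2 lower, and the 5 became 3 without D2A1-m2 replicate 2 or without either D2A1-m1 array. Eno3, the muscle form of enolase, stood at 10.08, 10.26 and 10.5 in D2A1-m2, against 8.34, 8.42 and 8.39 in D2A1 (change 1.85 ± 0.13, adjusted p = 1.84e-05), whereas Ldha and Gapdh had changes of 0.15 ± 0.15 and 0.16 ± 0.11. Mvk, mevalonate kinase, was 2.42-fold higher (adjusted p = 0.000327), but 32 of 36 cholesterol and fatty acid genes were not called.

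Genes of detoxification were called in 9 of 54 cases, 6 higher and 3 lower (16.7%, near the 16.2% of all genes). Akr1c18, an aldo-keto reductase that inactivates progesterone, stood at 8.86, 8.44 and 8.21 in D2A1-m2, against 6.66, 4.93 and 6.26 in D2A1 (change 2.57 ± 0.4, adjusted p = 0.00192), while Aldh3b1 was 2.46-fold lower. Of 51 lysosome and autophagy genes 4 were higher and 3 lower (13.7%, below the share of all genes). Gpnmb, a glycoprotein of lysosomes and melanosomes, stood at 10.28, 9.05 and 8.97 in D2A1-m2, against 7.59, 8.48 and 7.4 in D2A1 (change 1.92 ± 0.23, adjusted p = 0.000506), and Laptm5 was detected in D2A1-m2 alone. These groups also depended on single arrays, with 14 detoxification genes called without D2A1 replicate 2 and 4 lysosome genes without D2A1 replicate 3.

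In the secretory traffic list 5 of 45 tested genes were higher and 1 lower (13.3%, below the 16.2% of all genes). Rab32, a GTPase of lysosome-related organelles, stood at 9.17, 9.49 and 9.41 in D2A1-m2, against 6.75, 7 and 6.93 in D2A1 (change 2.33 ± 0.19, adjusted p = 4.86e-05). Vamp5, a SNARE of muscle and endothelial cells, was 3.35-fold higher (adjusted p = 2.79e-05). Rab11b, a GTPase of recycling endosomes, had a change of 0.21 ± 0.12. The groups with fewest changes were the ribosomal proteins, with 1 of 50 (Rpl7a on chromosome 2, −0.6 ± 0.1, adjusted p = 0.00334), and the proteasome, with 1 of 33 and with none when any single D2A1-m2 array was left out. A second ribosomal protein gene was called without D2A1 replicate 1 or 2.

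The place of the changed genes in the genome was described next, a view chosen after the values were seen. Of the tested genes 9001 could be placed on a chromosome through RefSeq (GRCm38.p6). On chromosome 4, 143 of 558 tested genes were higher in D2A1-m2 and 11 lower, with a median change of 0.38 over all of them. The reverse held on 3 chromosomes: on chromosome 2, 22 of 710 were higher and 153 lower (median −0.35), on chromosome 14, 13 of 294 were higher and 66 lower (median −0.36), and on chromosome 16, 6 of 289 were higher and 77 lower (median −0.42). On the other 16 chromosomes the medians lay between −0.2 and 0.13. Of all genes on chromosomes 2, 4, 14 and 16, 26.5% were called, against 13.6% of the genes elsewhere.

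These shifts ran along each chromosome and were not set by a few genes. On chromosome 4, 83.9% of genes had a change above 0, and the medians of the first, middle and last part of its genes were 0.4, 0.35 and 0.38. On chromosome 2, 84.9% had a change below 0, with medians of −0.34, −0.34 and −0.36. The medians were alike in both batches, 0.38 and 0.36 for chromosome 4 and −0.35 in each for chromosome 2. Against the mean of D2A1, single D2A1-m2 arrays had chromosome 4 medians of 0.37, 0.39 and 0.38, D2A1-m1 arrays 0.09 and 0.08, and D2A1 arrays, each against the other 2, −0.01 to 0. On chromosome 14 the D2A1-m2 arrays stood at −0.36, −0.36 and −0.37 and the D2A1-m1 arrays at −0.34 and −0.34, and on chromosome 16 the D2A1-m2 arrays at −0.4, −0.37 and −0.42 and the D2A1-m1 arrays at −0.34 and −0.36. On chromosome 2 the D2A1-m2 arrays stood at −0.35, −0.35 and −0.36 and the D2A1-m1 arrays at −0.19 and −0.18. Chromosomes 14 and 16 were thus low in both sublines, which share the D2A1 arrays they are set against. When each array was scaled to a common median in place of quantile normalization, which moves the median of all genes by 0.098, the medians were 0.47 on chromosome 4, −0.23 on chromosome 2, −0.24 on chromosome 14 and −0.29 on chromosome 16. In the authors' processed values they were 0.19, −0.17, −0.16 and −0.17 in that order.

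**Figure D5:**
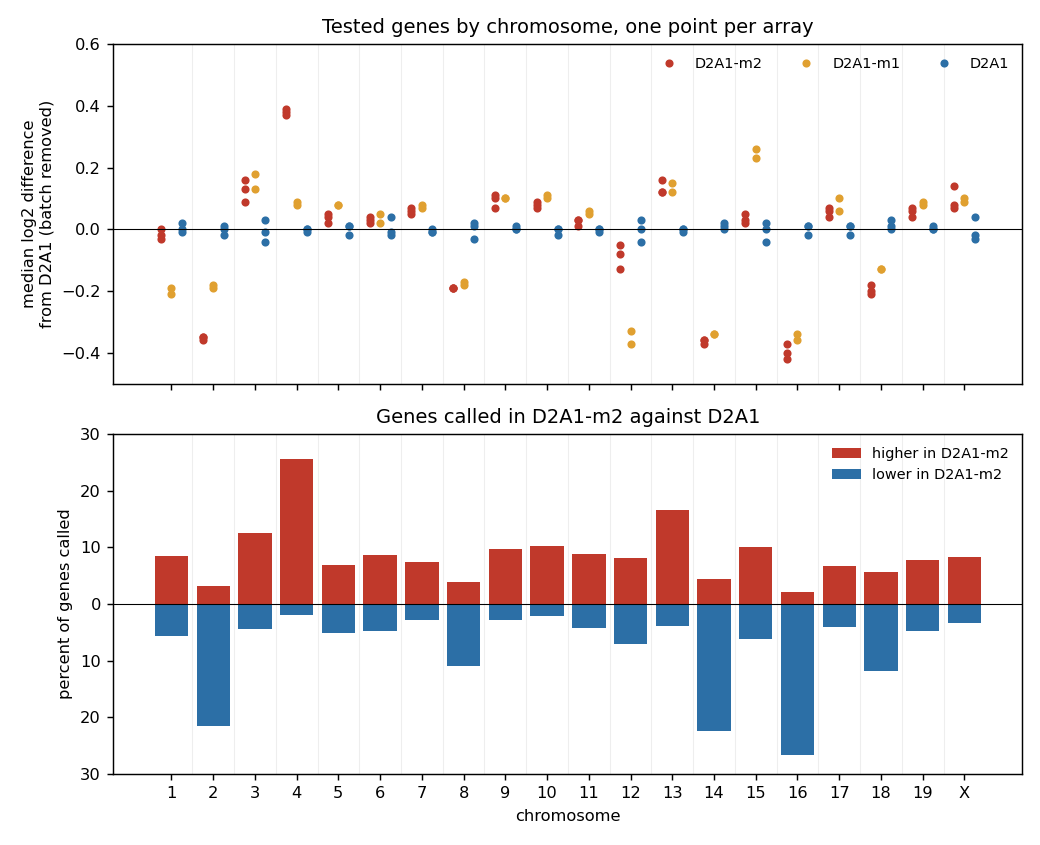
The upper panel gives the median log2 difference of the tested genes of each chromosome from D2A1, 1 point for each array with the batch removed, and the lower panel the percent of its genes called higher (above 0) and lower (below 0) in D2A1-m2 against D2A1. The D2A1-m2 arrays stand at 0.37 to 0.39 on chromosome 4 and below −0.3 on chromosomes 2, 14 and 16.

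These chromosomes hold 1851 of the 9001 placed genes. Some of the named genes lie there, and several of those changed against the local shift. On chromosome 4, Tpm2, Id3, Plin2, Errfi1, Laptm5, Cavin4 and Clic4 were higher, and Sdc3 was lower. On chromosome 2, Slpi, Wfdc2, Sox12, Lama5 and Ndufs3 were lower, whereas Fgf7, Cd44 and Chst1 were higher. On chromosome 14, Bmp1 was lower, whereas Itgbl1 and Phf11d were higher. On chromosome 16, Ydjc and Cldn1 were lower, whereas Mylk was higher. Leaving the 4 chromosomes out kept the inflammasome count at 7 of 12 higher, since none of its tested members lies there. The actin list then held 22 of 49 members higher and 2 lower, and the interferon list 1 of 33 higher and 9 lower. The series holds RNA measurements only, and the number of copies of these chromosomes was not measured.

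D2A1-m2 was last set against D2A1-m1, with 3 and 2 arrays, to see where the sublines of the same parent differ. Of 9017 genes 385 (4.27%) differed, 205 higher and 180 lower in D2A1-m2. The count was 32 without D2A1-m1 replicate 2, 50 without D2A1-m1 replicate 1, and 151, 88 and 85 without D2A1-m2 replicate 1, 2 and 3, so only genes whose call held without any single array are named here, unless the exception is given. Tubb2b was higher in D2A1-m2 by 2.91 (adjusted p = 3.82e-05) and Ptx3 by 3.38. Shroom2 was higher than in D2A1-m1 by 1.8 (adjusted p = 0.000697), where it was undetected at 4.49 and 4.38, although it was lower than in D2A1. Rab32 was higher by 1.66 (adjusted p = 0.00371) and Laptm5 by 1.58 (adjusted p = 0.00164). Mgp and Chst1 were lower in D2A1-m2 than in D2A1-m1, and so was Thbs2 (−1.06, adjusted p = 0.00635), which lost the call without D2A1-m1 replicate 2. Fgf7 (−0.65, adjusted p = 0.101), Tpm2 (−0.02) and Arhgdib (−0.16), which had changes of about 5 log2 units or more against D2A1, did not pass the test between the sublines.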

How the data were processed

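RNA of 8 cultures was measured on Illumina MouseWG-6 v2.0 arrays. The authors deposited the bead intensity of every probe without normalization, and beside it a detection p-value computed from negative control beads. A second table deposited by the authors holds processed values close to a log2 scale, made with lumi (version not given in the sources used here): probes with a detection p over 0.01 on all arrays removed, variance stabilisation, robust spline normalization, then ComBat on the batches. Its exact scale and centring are not stated, so it served as an alternative.

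In R 4.3.3 with limma 3.58.1, neqc corrected the background (normexp from detection p-values, offset 16), quantile normalized and took log2. Of 45281 probes 16462 were detected at p of at most 0.01 on at least 1 array, and 14107 of these name 1 gene in the platform annotation. For 3481 of 9017 genes several probes were kept, and the one of largest interquartile range was used. Where a second probe moved less than 1.5-fold or the other way for a gene described in detail, its value is given. One model (lmFit, eBayes) held line and batch for all 8 arrays, with 4 residual and 5.23 prior degrees of freedom. The median SE of a change was 0.138 on the log2 scale. Precision is limited by how few arrays there are. Genes were called at an adjusted p under 0.05 with a fold of 1.5 or more. The methods' t-test used p under 0.001.

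The comparison, its members and the gene lists were chosen with earlier results of these data known. Named genes were the 12 called genes of largest change in each direction whose D2A1-m2 and D2A1 arrays do not overlap, and from each list up to 4 called members of largest change and 2 others of highest level. Further names came from the marker check, and the summaries by chromosome were added after the values were seen. Probes naming no single gene were counted apart. The scripts were tested on simulated data. Alternatives covered background, offset, scaling, filter, probe choice, batch, replicate block, prior, samples and the authors' values. Some genes are not reported here.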

Additional observations from a re-analysis of the deposited data

Results flagged for a closer look

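Prl2c2 and Prl2c3, proliferin genes, changed in opposite directions in the sublines, each against D2A1. Prl2c2 was 1.75 log2 units higher in D2A1-m2 than in D2A1-m1 (adjusted p = 0.00164, limma), with levels of 11.43, 11.37 and 11.37 in D2A1-m2, against 9.47 and 9.84 in D2A1-m1. The D2A1 arrays stood between, at 10.59, 10.47 and 10.08. Prl2c3 was 1.81 higher (adjusted p = 0.00106). Both stood highest in D2A1-m2 and lowest in D2A1-m1, and their probes may read the same transcripts.

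Probes that name no single gene were not part of the gene tests. Of 2355 such probes that were kept, 238 (10.1%) changed in D2A1-m2 against D2A1, 126 higher and 112 lower.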

How the results depend on the processing

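The number of genes that changed in D2A1-m2 against D2A1, 1462 in the main processing, was 918 with no background correction, 917 with an offset of 50, 330 in the authors' processed values, 122 in batch 1 alone, 1808 in batch 2 alone and 483 by the methods' t-test at its p limit. Batch 1 holds 1 D2A1-m2 and 1 D2A1-m1 array and batch 2 holds 1 D2A1-m1 and 1 D2A1 array, and such a lone array is assumed to vary like the others. The count lay between 1134 and 1633 when single arrays were left out. Scaling each array to a common median gave 1490, of which 71.1% were higher, against 54.7% in the main processing. The number differing between D2A1-m2 and D2A1-m1, 385 in the main processing, was 252 with no background correction, 252 with an offset of 50, 214 with no detection filter, 93 in the authors' processed values, 70 with no batch term, 0 in batch 1 alone by limma (432 at an unadjusted p under 0.05), 476 in batch 2 alone, 65 by the methods' t-test and 21 by it after Benjamini-Hochberg adjustment, and 32 to 545 without single arrays. With the replicate number as a block in place of the batch the counts were 1597 and 97. The deviations of D2A1-m2 and D2A1 arrays of the same number correlated at 0.41, −0.17 and 0.56, and at −0.07, 0.08 and −0.43 with the batch removed. Replicates 1 and 3 of these lines share a batch, so a pairing of cultures by number cannot be told apart from the batch. Of 144 called genes named by the rule, 120 kept their call without any single array. Rab6a had a change of −0.02 on its probe of highest mean, against 0.78 on the probe used, and was the only reversal among named genes in the alternatives run. The medians by chromosome and the counts off chromosomes 2, 4, 14 and 16 were alternatives chosen after seeing the data, and the medians of those 4 chromosomes kept their sign in them.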

Other observations

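In runs of 15 neighbouring tested genes, a description chosen after the values were seen, the median change lay between −0.54 and 0.5 from the 1st to the 99th percentile of 8721 runs. The highest run, Kdm1a to Nbl1 on chromosome 4, had a median of 0.75 with 8 genes higher, and the lowest, Tomm34 to Neurl2 on chromosome 2, had a median of −0.69 with 12 genes lower. A run on chromosome 13, H3c8 to H1f2, in the histone cluster, had a median of 0.61 with 8 genes higher and none lower.

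Solute carriers, genes with the Slc prefix, were called in 24 of 152 cases, 17 higher and 7 lower (15.8%), and zinc finger genes with the Zfp prefix in 20 of 189 cases, 7 higher and 13 lower (10.6%), beside 16.2% of all genes.

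Chromosome medians also moved in D2A1-m1 on chromosomes where D2A1-m2 had a median near 0. Chromosome 12 had a median of −0.09 in D2A1-m2 and −0.35 in D2A1-m1, and chromosome 15 had 0.04 in D2A1-m2 and 0.23 in D2A1-m1, each against D2A1.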
